A study of Mus musculus with 16 samples.

Results

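Genes of pattern recognition and interferon signalling were examined in splenic CD11b+ cells of mice exposed to allogeneic cells, with and without costimulation blockade and erythropoietin (EPO). They were taken by symbol from the panel's 734 genes, as the genes whose symbol starts with Tlr, Nlr, Nod, Clec, Irak, Ticam, Myd88, Irf, Ifi, Ifn, Isg, Oas or Stat, together with *Tmem173*, which gave 43 genes. Of these, 19 encode receptors (12 Toll-like, 3 NOD-like, 4 C-type lectins), 2 encode adaptors (*Myd88* and *Tmem173*) and 22 are interferon genes (interferons and their receptor chains, Irf and Stat transcription factors, and interferon-induced genes). No symbol starting with Irak, Ticam or Oas was in the table used here.

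Pattern recognition receptors are germline-encoded sensors of microbial products and of material from damaged cells, and spleen macrophages, monocytes, neutrophils and dendritic cells carry different sets of them. Toll-like receptors signal through MyD88 and related adaptors, and STING, the product of *Tmem173*, relays the sensing of cytosolic DNA. Both routes can lead to the production of type I interferons through interferon regulatory factors (Irf), and interferons then act through Janus kinases and Stat factors on target genes that share short promoter elements.

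All 16 mice were wild-type C57BL/6 (B6; C57BL/6J in the methods of the study), 4 in each of 4 groups, and their ages were not given in the sources used here. Naive mice received nothing. A second group was injected with 20000000 spleen cells of BALB/c mice, a fully mismatched strain, which the labels describe as T cell–depleted, and received no other agent. The third group received these cells and CTLA4-Ig, a fusion protein that blocks CD28 costimulation, as 150 μg on day 2, and the last received the cells, CTLA4-Ig and EPO, the hormone that drives red cell formation, at 5000 U/kg daily. The spleens of these 3 groups were taken on day 7. No group received EPO without CTLA4-Ig, so the effect of EPO was measured only on top of CTLA4-Ig. For brevity, the groups are called naive, cells alone, CTLA4-Ig and EPO. The question was which of these genes changed at each of the 3 added agents. In one protocol field, the letter codes of the naive and the cells-alone groups are interchanged relative to the titles and treatments of the samples. Grouping here followed the titles and treatments, and every comparison of these groups depends on that reading.

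The values are log2 expression on the authors' scale, in which 1 unit is a doubling of the measured transcript. Each mouse's values are whole probe counts times a factor of its own, with totals of 562760 to 912328 counts per mouse. The factors were 1.27 to 1.85 in naive mice and 0.56 to 0.79 in the 12 other mice, and the median gene stood at 7.26 ± 0.08 (SD, n = 4) in naive mice against 6.53 ± 0.04, 6.54 ± 0.09 and 6.75 ± 0.06 with cells alone, CTLA4-Ig and EPO. Differences were therefore also computed with each mouse centred on its median, after quantile normalization and from the counts scaled by their totals, and a call that held in the same direction in all 4 is described as holding on all 4 scales. Calls were made in limma where the *P* value, adjusted by Benjamini-Hochberg over all 734 genes, was below 0.05. One naive mouse, replicate 1, had a count of 1 for *Irf8* and for *Clec1b*, while the other 3 naive mice had at least 23 for each gene. Among the 734 genes, these were the only 2 in which 1 mouse of a group stood at a count of 1 and the other 3 at 20 or more.

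The cells were labelled as CD11b+ spleen cells obtained by positive selection, although the results of the study describe CD11b+CD11c- cells. *Itgam*, the gene of CD11b, was measured in every mouse, at 11.42 ± 0.15, 8.85 ± 0.28, 9.22 ± 0.12 and 9.56 ± 0.29 (SD, n = 4 each) from naive to EPO, and was not called with EPO on the deposited scale. It was called higher with EPO after quantile normalization (log2 difference 0.40, adjusted *P* value 0.0178) and with totals (0.43, 0.0193). The other 2 myeloid markers, *Csf1r* and *Cd68*, rose with EPO on all 4 scales (log2 differences 1.16, adjusted *P* value 3.19e-06 and 1.36, adjusted *P* value 9.86e-08). Markers of several cell types moved between groups. The summed linear level of 6 neutrophil markers ranged from 244776 to 721159 in naive mice, 11276 to 33113 with cells alone, 12683 to 22322 with CTLA4-Ig and 34640 to 78905 with EPO. With EPO 2 of the 6, *S100a8* and *S100a9*, were called higher, and no call was made for *Ly6g*, *Mmp8*, *Cxcr2* and *Csf3r*. With totals 5 of the 6 were called higher, all but *Cxcr2*. Among classical monocyte markers, *Chil3* (log2 difference 1.84, adjusted *P* value 6.96e-04) and *Ccr2* (0.54, adjusted *P* value 0.0177) rose with EPO, *Chil3* on all 4 scales and *Ccr2* not on all. All 3 neutrophil progenitor markers (*Mpo*, *Elane* and *Ctsg*) rose with EPO, from a sum of 226 to 440 with CTLA4-Ig to one of 1684 to 2653. Of 4 eosinophil markers, with sums of 245 to 321 and 2264 to 3176, 3 rose, led by *Prg2* (log2 difference 3.92, adjusted *P* value 2.3e-06), and *Siglecf* was not called (log2 difference 0.51, adjusted *P* value 0.0895). The sum of 7 red pulp macrophage markers was 7434 to 8257 with CTLA4-Ig and 23775 to 33429 with EPO, and all 7 rose. The sum of 5 dendritic cell markers was 3992 to 4986 and 1645 to 2067, with 3 lower and 1 higher. All 3 T cell markers fell with EPO, from a sum of 985 to 1090 with CTLA4-Ig to one of 277 to 401, as did the 3 NK cell markers, at 8291 to 12240 with CTLA4-Ig and 4929 to 6576 with EPO. Of the NK cell markers, *Nkg7* and *Klrk1* were not called with totals (adjusted *P* value 0.0544 each), and *Gzma* fell on all 4 scales. No marker on these lists stood at a count of 1 in any mouse. In such bulk samples, fewer cells of a type and less RNA per cell cannot be told apart, and the part that cell makeup has in the differences below was not tested.

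Expression differed among the 4 groups for 38 of the 43 genes (88.4%) in limma's moderated F-test, beside 85.3% of all 734 genes. The exceptions were *Ifit1bl1*, *Irf3*, *Irf8*, *Nod1* and *Tlr11*. Against naive mice, the cells-alone group had 4 of the genes called higher (9.30%, beside 11.9% of all genes) and 30 lower (69.8%, beside 58.4%). In 32 genes (74.4%, beside 61.2%) the values of the 2 groups did not overlap. The median difference of the 43 genes was -0.69, close to the -0.65 of all 734. On all 4 scales, the same 4 were higher (beside 11.9% of all genes) and 12 were lower (27.9%, beside 18.7%). Adding CTLA4-Ig called none of the 43 in limma, as deposited or with voom on the counts, and 0 of all 734 as deposited (70 at an unadjusted *P* value below 0.05). Adding EPO called 10 of the 43 higher (23.3%, beside 22.8% of all genes) and 12 lower (27.9%, beside 28.3%), and in 21 (48.8%, beside 48.8%) the EPO mice did not overlap the CTLA4-Ig mice. On all 4 scales, 7 were higher (16.3%, beside 16.8%) and 6 lower (14.0%, beside 20.4%). The balance moved with the scale, in these genes and in all genes. Centring gave 7 higher (16.3%, beside 17.2%) and 16 lower (37.2%, beside 37.6%), quantile normalization 10 (23.3%, beside 21.1%) and 10 (23.3%, beside 30.4%), and totals 12 (27.9%, beside 25.7%) and 6 (14.0%, beside 20.6%). On the deposited scale, the share of these genes that changed with EPO was thus close to that of the whole panel, and the results below concern which genes changed and in which direction.

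Among the receptors, 6 of 19 rose with EPO (31.6%), 4 fell (21.1%) and 9 were not called. Among the interferon genes, 4 of 22 rose (18.2%), 8 fell (36.4%) and 10 were not called, and neither of the adaptors was called. These shares stand beside 22.8% higher and 28.3% lower over all genes, and the difference between the classes was not tested. After centring, 6 receptors rose and 4 fell, against 1 and 11 interferon genes, beside 17.2% higher and 37.6% lower over all genes. With totals 8 receptors rose and 2 fell, against 4 and 4 interferon genes, beside 25.7% higher and 20.6% lower over all genes. On the deposited scale, the largest rises were those of *Clec1b*, *Isg15*, *Tlr4* and *Clec5a*, and the largest falls those of *Irf4*, *Nlrp3*, *Ifng* and *Stat4*.

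**Figure D1:**
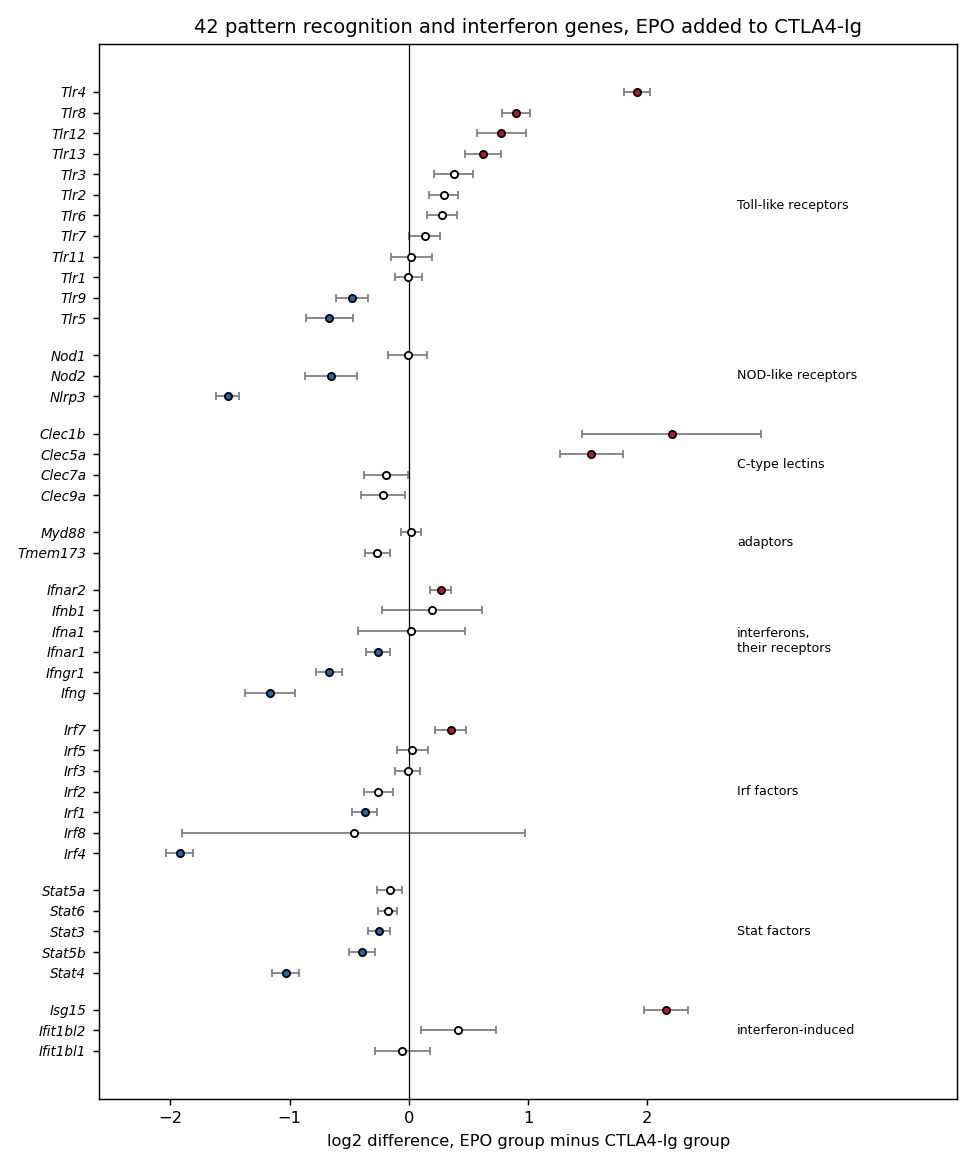
Log2 difference between the EPO group and the CTLA4-Ig group (4 mice each) for 42 of the 43 genes, grouped by family, with limma's standard error as a bar; red points were called higher, blue points lower and white points were not called. *Tlr4*, *Clec1b*, *Clec5a* and *Isg15* lie above 1.5, *Irf4* and *Nlrp3* lie below -1.5, and the wide bars of *Irf8* and *Clec1b* come with the naive mouse at a count of 1.

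The Toll-like receptors of the cell surface did not move together. TLR4 senses lipopolysaccharide. *Tlr4* read 8.99, 8.58, 8.64 and 8.74 in naive mice, 6.48, 6.57, 6.73 and 6.54 with BALB/c spleen cells alone, 6.62, 6.88, 6.85 and 6.63 with CTLA4-Ig and 8.49, 8.62, 8.81 and 8.71 with EPO. Every EPO mouse lay above every CTLA4-Ig mouse and within or just below the naive range, a 3.77-fold rise (log2 difference 1.91, standard error 0.11, limma adjusted *P* value 1.01e-08). In the step from naive to cells alone *Tlr4* had fallen on all 4 scales, 4.47-fold on the deposited one (log2 difference -2.16, standard error 0.11, limma adjusted *P* value 5.45e-10). *Cd14*, the coreceptor of lipopolysaccharide, fell in the same step (log2 difference -1.49, adjusted *P* value 4.08e-06) and stood at 8.32 ± 0.26 with CTLA4-Ig and 8.25 ± 0.12 with EPO (log2 difference -0.07, adjusted *P* value 0.774).

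TLR2 senses bacterial lipopeptides as a dimer with TLR1 or TLR6. *Tlr2* read 9.73, 9.48, 9.56 and 9.37 in naive mice and 7.06, 7.05, 6.89 and 7.22 with cells alone, a fall on all 4 scales that was 5.57-fold on the deposited one (log2 difference -2.48, standard error 0.12, limma adjusted *P* value 2.69e-10). *Tlr6* fell likewise on all 4 scales, from 9.06 ± 0.15 to 6.75 ± 0.09 (SD, n = 4 each; log2 difference -2.31, standard error 0.13, limma adjusted *P* value 1.05e-09). *Tlr1*, in contrast, read 8.21, 8.13, 7.94 and 7.94 in naive mice and 8.64, 8.60, 8.52 and 8.42 with cells alone, so that the groups were apart in the other direction, on all 4 scales (log2 difference 0.49, standard error 0.12, limma adjusted *P* value 0.00168). With EPO, *Tlr1* was not called (log2 difference -0.0048, adjusted *P* value 0.973). *Tlr2* and *Tlr6* stood 0.29 and 0.28 higher without passing the threshold (limma adjusted *P* values 0.0526 and 0.0844). Several alternatives put *Tlr2* past the threshold, among them the fit blocked on the replicate number (adjusted *P* value 0.0316), quantile normalization (0.0334), totals (0.0237) and the fits without naive replicate 1, CTLA4-Ig replicate 1 or 2, or EPO replicate 3 (down to 0.0333). *Tlr6* passed it with totals (0.0341) and without CTLA4-Ig replicate 2 or EPO replicate 4 (down to 0.0259). After centring neither was called (*Tlr2* 0.087, adjusted *P* value 0.499, and *Tlr6* 0.073, 0.604). After quantile normalization *Tlr6* was not called (0.12, 0.344). Leaving out 1 mouse took the adjusted *P* values as high as 0.158 for *Tlr2* and 0.23 for *Tlr6*.

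TLR5 senses flagellin. *Tlr5* fell from 4.66 ± 0.43 with CTLA4-Ig to 3.99 ± 0.27 with EPO (log2 difference -0.67, standard error 0.20, limma adjusted *P* value 0.0109), although the groups overlapped and the counts scaled by totals did not call it (adjusted *P* value 0.0605). It was already lower with cells alone than in naive mice, with a log2 difference of -1.41 on the deposited scale and, without a call, -0.29 from the totals.

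The receptors of endosomes, which sense nucleic acids and parasite profilin, also went both ways. *Tlr8*, a sensor of RNA degradation products, read 9.85, 9.79, 9.61 and 9.88 in naive mice, 8.66, 8.52, 8.27 and 8.41 with cells alone, 8.45, 8.56, 8.14 and 8.13 with CTLA4-Ig and 9.12, 9.15, 9.33 and 9.26 with EPO. The EPO mice lay above both groups given cells without EPO and below the naive mice (log2 difference 0.90, standard error 0.12, limma adjusted *P* value 1.71e-05). *Tlr13*, a mouse sensor of bacterial ribosomal RNA, rose with EPO from 8.41 ± 0.23 to 9.03 ± 0.20 on all 4 scales (log2 difference 0.62, standard error 0.15, limma adjusted *P* value 0.00278), after a log2 difference of -2.02 from naive mice to cells alone (adjusted *P* value 1.83e-08), also on all 4 scales. *Tlr12*, a profilin sensor measured at 7 to 44 counts, read 3.70, 3.80, 3.74 and 4.26 in naive mice, 3.63, 3.69, 4.20 and 4.65 with cells alone, 3.48, 3.47, 3.70 and 3.88 with CTLA4-Ig and 4.18, 4.47, 4.62 and 4.36 with EPO. The EPO mice were above all CTLA4-Ig mice (log2 difference 0.77, standard error 0.21, limma adjusted *P* value 0.00589) but overlapped the mice given cells alone.

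*Tlr9*, the sensor of CpG DNA, went the other way and fell from 8.58 ± 0.29 to 8.10 ± 0.05 with EPO (log2 difference -0.48, standard error 0.14, limma adjusted *P* value 0.00966), a call that the counts scaled by totals did not give (adjusted *P* value 0.0688). *Tlr7*, a sensor of single-stranded RNA, and *Tlr11* were not called with EPO (log2 differences 0.13 and 0.02). *Tlr3*, the sensor of double-stranded RNA, was 0.38 higher with an adjusted *P* value of 0.0664, or 0.041 without naive replicate 2. The groups did not overlap but nearly touched, with the highest CTLA4-Ig mouse at 5.1446 and the lowest EPO mouse at 5.1467. *Tlr3* was not called after centring (log2 difference 0.17, adjusted *P* value 0.439), after quantile normalization (0.04, 0.859) or with totals (0.48, 0.0531). Of the 12 Toll-like receptors, 4 therefore rose with EPO (beside 22.8% of all genes), 2 fell (beside 28.3%) and 6 were not called. With totals 6 rose (beside 25.7% of all genes) and none fell (beside 20.6%), and on all 4 scales 4 rose (beside 16.8%) and none fell (beside 20.4%).

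**Figure D2:**
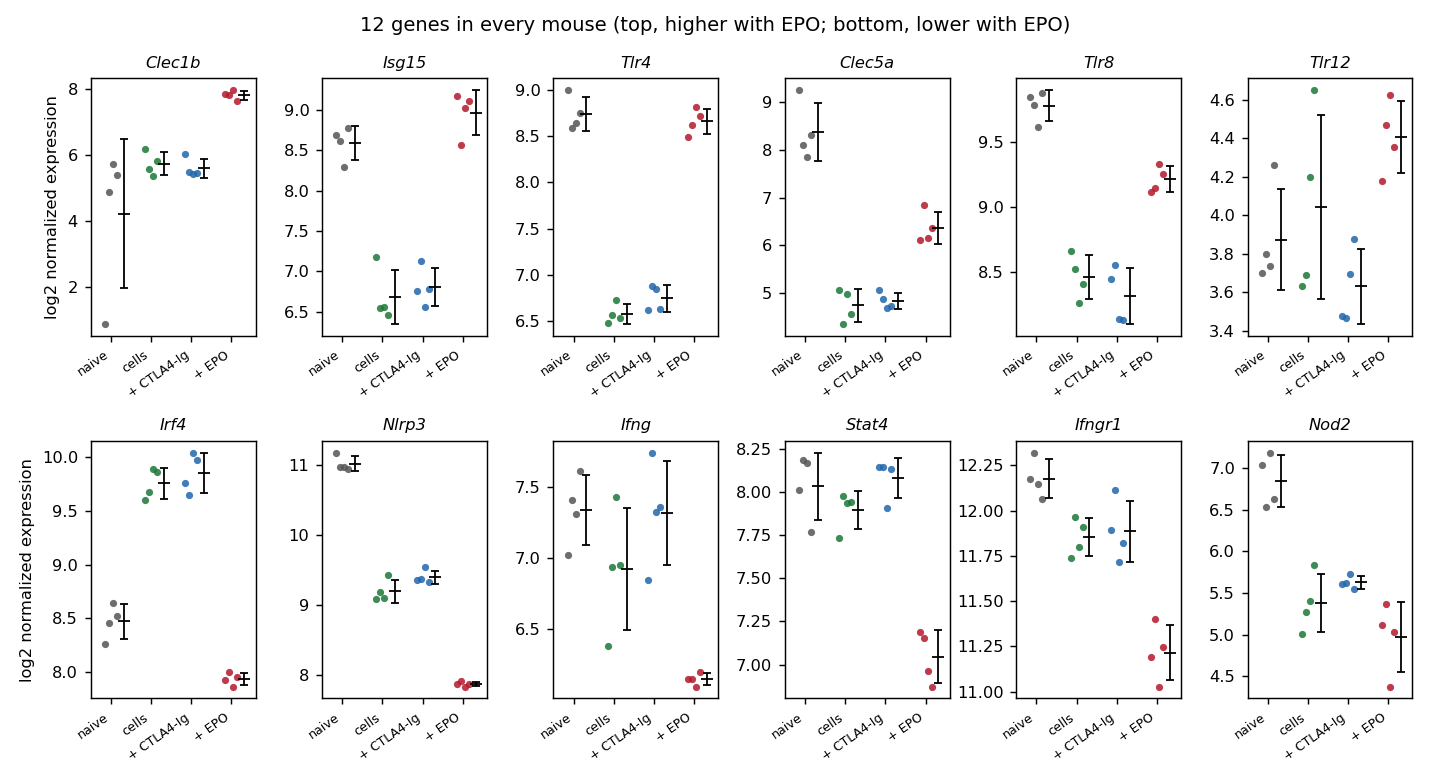
Log2 normalized expression of the 6 genes with the largest rise with EPO (top) and the 6 with the largest fall (bottom) among genes without overlap between the EPO and CTLA4-Ig groups, with a point for each of 4 mice per group and the mean ± SD beside the points; "cells" stands for BALB/c spleen cells alone. *Tlr4* and *Isg15* with EPO overlap the naive range, and *Irf4* and *Nlrp3* with EPO lie below all other groups.

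Of the 3 NOD-like receptors, 2 fell with EPO (beside 28.3% of all genes) and 1 was not called. NLRP3 assembles the inflammasome that activates caspase-1. *Nlrp3* read 11.17, 10.97, 10.96 and 10.94 in naive mice, 9.08, 9.18, 9.10 and 9.43 with BALB/c spleen cells alone, 9.35, 9.38, 9.54 and 9.33 with CTLA4-Ig and 7.88, 7.91, 7.84 and 7.88 with EPO. Its level dropped at both steps with no overlap, first by 3.51-fold (log2 difference -1.81, standard error 0.09, limma adjusted *P* value 5.45e-10) and then, with EPO, by 2.87-fold (log2 difference -1.52, standard error 0.09, limma adjusted *P* value 1.23e-08), each on all 4 scales. *Nod2*, a sensor of muramyl dipeptide, read 7.04, 6.53, 7.18 and 6.62 in naive mice, 5.00, 5.27, 5.40 and 5.84 with cells alone, 5.61, 5.62, 5.73 and 5.55 with CTLA4-Ig and 5.12, 5.36, 4.37 and 5.03 with EPO. It fell with EPO on all 4 scales (log2 difference -0.65, standard error 0.22, limma adjusted *P* value 0.0193), and lost the call without EPO replicate 3, the lowest mouse (adjusted *P* value 0.0674). *Nod1*, which senses a related peptidoglycan fragment, was not called with EPO (log2 difference -0.01, adjusted *P* value 0.955). Its difference from naive to cells alone, -0.39 with an adjusted *P* value of 0.0449, was positive on the other 3 scales and lost the call without any of naive replicates 2, 3 or 4, cells-alone replicates 1 or 2, CTLA4-Ig replicate 2 or EPO replicates 2 or 4 (adjusted *P* values up to 0.133).

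The 4 inflammasome genes of a pathway list that were in the table included the substrates and the adaptor of caspase-1. With EPO, *Il18* rose by 1.93 (adjusted *P* value 1.98e-08) and *Il1b* fell by 0.81 (adjusted *P* value 7.70e-04), both on all 4 scales. *Pycard*, the adaptor, was 0.97 higher (adjusted *P* value 0.014), a call that was lost after centring (0.0529). *Casp1* was not called (log2 difference 0.22, adjusted *P* value 0.231). The genes of the 2 cytokines that this complex matures thus moved in opposite directions. From naive mice to cells alone, *Il1b* had fallen by 4.19 (adjusted *P* value 7.27e-11).

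The C-type lectins differed from each other in both steps. *Clec5a*, a receptor of myeloid cells that signals through the adaptor encoded by *Tyrobp*, read 9.25, 8.10, 7.86 and 8.32 in naive mice, 5.07, 4.36, 4.98 and 4.58 with cells alone, 5.06, 4.87, 4.70 and 4.74 with CTLA4-Ig and 6.12, 6.85, 6.16 and 6.36 with EPO. It dropped 12.4-fold from naive mice to cells alone (log2 difference -3.63, standard error 0.26, limma adjusted *P* value 1.61e-08) and rose 2.88-fold with EPO (log2 difference 1.53, standard error 0.26, limma adjusted *P* value 1.85e-04), each on all 4 scales, and with EPO it remained below every naive mouse. *Tyrobp* fell and rose in the same steps (log2 differences -1.87, adjusted *P* value 1.44e-09 and 0.35, adjusted *P* value 0.0142), although its rise did not hold on all 4 scales. *Clec7a*, the β-glucan receptor Dectin-1, read 11.83, 11.62, 11.54 and 11.54 in naive mice and 9.07, 8.83, 8.45 and 8.67 with cells alone. That fall of 7.36-fold held on all 4 scales (log2 difference -2.88, standard error 0.18, limma adjusted *P* value 4.41e-09), and with EPO *Clec7a* was not called (log2 difference -0.20, adjusted *P* value 0.415). The fall of *Clec5a* and *Clec7a* from naive mice went with the fall of all 6 neutrophil markers and all 3 classical monocyte markers, and their part in it was not tested.

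*Clec9a*, a receptor for actin of dead cells that marks cross-presenting dendritic cells, read 5.48, 5.43, 5.78 and 6.33 in naive mice and 6.56, 6.97, 6.79 and 7.18 with cells alone, a rise on all 4 scales (log2 difference 1.12, standard error 0.18, limma adjusted *P* value 7.61e-05). The sum of the dendritic cell markers, of which *Ccr7* had the highest level, was 1786 to 2475 in naive mice and 4540 to 4957 with cells alone. Of the 2 listed markers of the cross-presenting subset, *Xcr1* rose in that step (log2 difference 0.53, adjusted *P* value 0.0312) and *Batf3* fell (log2 difference -1.36, adjusted *P* value 1.04e-05). With EPO, *Clec9a* was not called (log2 difference -0.22, adjusted *P* value 0.362), while the sum fell, *Xcr1* was 0.69 higher (adjusted *P* value 0.0111) and *Batf3* was not called (-0.09, 0.7). The call of *Xcr1* was lost after centring (adjusted *P* value 0.0917) and after quantile normalization (0.232). *Clec1b*, which encodes CLEC-2, the podoplanin receptor best known from platelets, read 0.89, 4.86, 5.74 and 5.41 in naive mice, 6.19, 5.58, 5.36 and 5.82 with cells alone, 6.03, 5.47, 5.43 and 5.46 with CTLA4-Ig and 7.83, 7.81, 7.96 and 7.61 with EPO. All EPO mice lay above all 12 other mice, a 4.61-fold rise over CTLA4-Ig (log2 difference 2.20, standard error 0.75, limma adjusted *P* value 0.023). The standard error included the naive mouse at a count of 1, and without that mouse it was 0.21 with an adjusted *P* value of 1.25e-06. With that mouse kept, leaving out EPO replicate 3 took the adjusted *P* value to 0.0501. From naive to cells alone, the difference of *Clec1b* was 1.51 with the mouse (adjusted *P* value 0.0851; called without naive replicate 3 or 4, down to 0.0303) and 0.40 without it (0.133). With the mouse, it was called after centring (log2 difference 2.24, adjusted *P* value 0.0192), after quantile normalization (2.18, 0.0132) and with totals (2.56, 4e-04).

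Neither adaptor moved with EPO at the threshold. *Myd88* read 9.57, 9.33, 9.30 and 9.30 in naive mice, 7.53, 7.60, 7.66 and 7.62 with BALB/c spleen cells alone, 7.65, 7.78, 7.61 and 7.65 with CTLA4-Ig and 7.61, 7.75, 7.78 and 7.62 with EPO. The 12 mice given cells lay within 7.53 to 7.78, whichever other agent they received, and all naive mice lay above 9. *Myd88* fell 3.42-fold from naive to cells alone on all 4 scales (log2 difference -1.77, standard error 0.08, limma adjusted *P* value 2.69e-10), and its difference with EPO was 0.02 (standard error 0.08, adjusted *P* value 0.859). *Tlr4* and *Tlr8*, which signal through MyD88, thus rose with EPO while *Myd88* was not called on any scale.

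*Tmem173* read 7.82, 7.91, 7.91 and 7.90 in naive mice, 7.69, 7.67, 7.66 and 7.55 with BALB/c spleen cells alone, 7.72, 7.56, 7.46 and 7.51 with CTLA4-Ig and 7.61, 7.34, 7.16 and 7.08 with EPO. All EPO mice lay below all naive mice, but neither step passed the threshold (log2 difference -0.24, adjusted *P* value 0.0574 for cells alone and -0.26, adjusted *P* value 0.0528 for EPO). The first difference turned positive on the other 3 scales. The second stayed negative and was called after centring (adjusted *P* value 0.00284), after quantile normalization (0.0285) and without EPO replicate 1 (0.00509). With totals the second difference was not called (-0.17, adjusted *P* value 0.419). Leaving out 1 mouse took its adjusted *P* value as high as 0.169. *Ikbke*, the only gene of the cytosolic nucleic acid sensing list in the table, fell with EPO by 0.33 (adjusted *P* value 0.0494). With totals *Ikbke* was not called (log2 difference -0.23, adjusted *P* value 0.207).

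**Figure D3:**
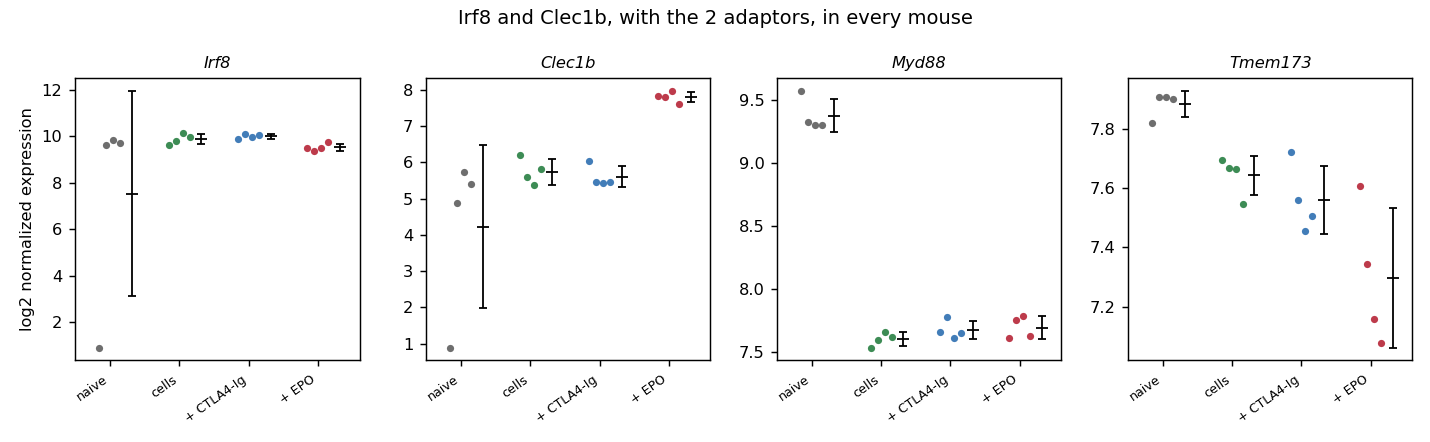
Log2 normalized expression of *Irf8* and *Clec1b*, with the adaptors *Myd88* and *Tmem173* beside them, with a point for each of 4 mice per group and the mean ± SD beside the points; axes differ between panels. Naive replicate 1 stands at 0.89 for *Irf8* and *Clec1b*, a count of 1, while its *Myd88* and *Tmem173* values are 9.57 and 7.82.

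Among the interferons, *Ifng*, the type II interferon made chiefly by T and NK cells, changed with EPO. *Ifng* read 7.02, 7.41, 7.31 and 7.61 in naive mice, 6.38, 6.93, 7.43 and 6.95 with BALB/c spleen cells alone, 6.85, 7.74, 7.33 and 7.36 with CTLA4-Ig and 6.15, 6.15, 6.10 and 6.20 with EPO. The EPO mice, at 6.10 to 6.20, lay below all other mice, a fall of 2.25-fold from CTLA4-Ig on all 4 scales (log2 difference -1.17, standard error 0.21, limma adjusted *P* value 2.69e-04). The T cell and NK cell markers fell in the same mice. *Ifna1* and *Ifnb1*, type I interferons measured at 7 to 55 and 4 to 17 counts, were not called with EPO (log2 differences 0.02, adjusted *P* value 0.973 and 0.19, adjusted *P* value 0.726). From naive mice to cells alone, *Ifna1* fell by 2.25 (adjusted *P* value 4.61e-04) on all 4 scales. *Ifnb1* fell by 1.62 on the deposited scale (0.00321) and was not called on the others. The difference of *Ifng* in that step, -0.41 with an adjusted *P* value of 0.0904, was called only without cells-alone replicate 3 (0.0204) among the fits that left out 1 mouse. It was positive without a call after centring (0.32) and after quantile normalization (0.22), and was called higher with totals (0.69, adjusted *P* value 0.0141).

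The receptor chains of the interferons parted. *Ifngr1*, the ligand-binding chain for interferon-γ, read 12.18, 12.32, 12.15 and 12.06 in naive mice, 11.74, 11.97, 11.80 and 11.91 with cells alone, 11.89, 12.12, 11.71 and 11.82 with CTLA4-Ig and 11.19, 11.40, 11.03 and 11.25 with EPO. It fell with EPO on all 4 scales and without overlap (log2 difference -0.67, standard error 0.11, limma adjusted *P* value 1.01e-04). Between naive mice and cells alone it was -0.32 on the deposited scale (adjusted *P* value 0.0157) and higher after centring (log2 difference 0.41), so that its direction in that step depends on the scale. The chains of the type I interferon receptor moved oppositely and by little with EPO, *Ifnar1* by -0.26 (adjusted *P* value 0.0394) and *Ifnar2* by 0.27 (0.0183). With the replicate number as a block neither was called (adjusted *P* values 0.057 and 0.0561). *Ifnar1* also lost its call without CTLA4-Ig replicate 2, 3 or 4 or EPO replicate 2, 3 or 4 (up to 0.107), after quantile normalization (0.0829) and with totals (0.301), and *Ifnar2* without replicate 4 of either group (up to 0.0565) or after centring (0.593).

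Of the 7 Irf factors, *Irf4* had the largest difference with EPO, on each of the 4 scales. IRF4 acts in lymphocytes and in dendritic cell and macrophage differentiation. *Irf4* read 8.26, 8.46, 8.64 and 8.52 in naive mice, 9.60, 9.68, 9.89 and 9.86 with BALB/c spleen cells alone, 9.76, 9.64, 10.04 and 9.98 with CTLA4-Ig and 7.92, 8.0, 7.86 and 7.95 with EPO. It rose 2.44-fold from naive mice to cells alone (log2 difference 1.29, standard error 0.11, limma adjusted *P* value 1.14e-07) and fell 3.79-fold with EPO (log2 difference -1.92, standard error 0.11, limma adjusted *P* value 1.01e-08), both on all 4 scales. The 4 EPO mice, at 7.86 to 8.0, lay below the naive mice as well. The T cell and dendritic cell marker sums rose and fell in the same steps. So did *Ms4a1*, the only listed B cell marker measured (log2 differences 1.48 and -0.76). Among the dendritic cell markers, *Batf3* fell in the first step (-1.36) and *Xcr1* was higher with EPO (0.69), against the sum. The part of these cells in the changes of *Irf4* was not tested.

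*Irf1*, an activator induced by interferon-γ, fell from 9.49 ± 0.10 to 9.12 ± 0.07 with EPO (log2 difference -0.37, standard error 0.10, limma adjusted *P* value 0.00787). The call was lost after quantile normalization (adjusted *P* value 0.0986) and with totals (0.191). *Irf7*, which drives type I interferon production, fell from naive mice to cells alone on all 4 scales, by 1.60 on the deposited one (adjusted *P* value 6.49e-08). With EPO it was 0.35 higher with overlapping groups (adjusted *P* value 0.038), and the call was lost in the fit of the 2 groups alone (0.112), in the blocked fit (0.0688), after centring (0.423), after quantile normalization (0.0726), and without CTLA4-Ig replicate 1 or 3 or EPO replicate 3 or 4 (up to 0.135). *Irf2*, *Irf3* and *Irf5* were not called with EPO (log2 differences -0.26, -0.01 and 0.03); *Irf2* was called lower after centring (0.00263).

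IRF8 directs the development of monocytes and of a dendritic cell lineage. *Irf8* read 0.89, 9.64, 9.87 and 9.70 in naive mice, 9.62, 9.82, 10.16 and 9.97 with BALB/c spleen cells alone, 9.87, 10.09, 9.99 and 10.05 with CTLA4-Ig and 9.52, 9.36, 9.52 and 9.74 with EPO. The recovered count of naive replicate 1 was 1, and those of the other naive mice were 560 to 632. Every EPO mouse lay below every CTLA4-Ig mouse, with means of 9.53 ± 0.16 and 10.00 ± 0.09, a log2 difference of -0.46. In the fit of all 16 mice, whose spread includes the naive mouse, the standard error was 1.44 and the limma adjusted *P* value 0.809. Without that mouse they were 0.12 and 0.00522. The 8 mice of the 2 groups alone gave an adjusted *P* value of 0.00752, and 0.0165 with the replicate block. Between naive mice and cells alone, *Irf8* differed by 2.37 with the mouse (standard error 1.44, adjusted *P* value 0.154) and by 0.15 without it (0.13, 0.302). With the mouse kept, it was called higher with totals (3.41, 0.00797). The naive mean was 7.53 ± 4.42 (SD, n = 4) with it and 9.74 ± 0.12 (SD, n = 3) without it.

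Of the Stat factors described here, 3 fell with EPO (beside 28.3% of all genes) and 2 were not called. STAT4 transmits the signal of interleukin 12 in T and NK cells. *Stat4* read 8.01, 8.19, 8.16 and 7.76 in naive mice, 7.73, 7.98, 7.93 and 7.94 with cells alone, 8.14, 8.14, 7.90 and 8.13 with CTLA4-Ig and 7.19, 7.16, 6.97 and 6.87 with EPO. All EPO mice lay below all 12 others, a fall of 2.05-fold from CTLA4-Ig on all 4 scales (log2 difference -1.03, standard error 0.11, limma adjusted *P* value 2.57e-06), in the mice in which the T and NK cell markers were lower. The differences of the other factors were small. *Stat5b*, with *Stat5a* the factor that the EPO receptor engages, fell from 8.17 ± 0.12 to 7.78 ± 0.13 (log2 difference -0.39, standard error 0.11, limma adjusted *P* value 0.00796), and was not called with totals (0.0786). *Stat5a* was not called (log2 difference -0.16, adjusted *P* value 0.225), except after centring (0.0216).

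*Stat3*, a factor downstream of interleukins 6 and 10, differed by -0.25 with EPO (adjusted *P* value 0.0381). That call was lost in the fit of the 2 groups alone (0.0767), in the blocked fit (0.0819), after quantile normalization (0.0696), with totals (0.296), and without CTLA4-Ig replicate 2 or 3 or EPO replicate 1 or 3 (up to 0.116). *Stat6*, the factor of interleukin 4, was -0.18 with an adjusted *P* value of 0.0757, 4.10e-04 after centring and 0.0345 without EPO replicate 2.

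The 3 interferon-induced genes responded apart. ISG15 is a ubiquitin-like protein that is attached to other proteins in interferon-treated cells. *Isg15* read 8.69, 8.61, 8.28 and 8.77 in naive mice, 7.18, 6.54, 6.56 and 6.46 with BALB/c spleen cells alone, 6.76, 7.13, 6.56 and 6.79 with CTLA4-Ig and 9.17, 8.56, 9.02 and 9.11 with EPO. The 8 mice given cells without EPO lay at 6.46 to 7.18, and the naive and EPO mice at 8.28 to 9.17, without overlap. *Isg15* thus fell 3.74-fold from naive mice to cells alone (log2 difference -1.90, standard error 0.19, limma adjusted *P* value 3.65e-07) and rose 4.46-fold with EPO (log2 difference 2.16, standard error 0.19, limma adjusted *P* value 2.3e-07), both on all 4 scales. *Ifit1bl2*, a relative of the interferon-induced gene Ifit1 measured at 7 to 30 counts, read 5.80, 5.09, 5.13 and 4.91 in naive mice and 3.45, 3.06, 2.80 and 2.14 with cells alone, a fall on all 4 scales (log2 difference -2.37, standard error 0.32, limma adjusted *P* value 1.08e-05). Its EPO mice, at 3.23, 3.70, 2.62 and 2.53, overlapped the CTLA4-Ig mice, at 2.80, 2.98, 2.04 and 2.59 (log2 difference 0.42, adjusted *P* value 0.305).

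*Ifit1bl1* went the other way from naive mice to cells alone (log2 difference 0.59, standard error 0.23, limma adjusted *P* value 0.0338), on all 4 scales but with overlapping groups. It lost the call in the fit with the replicate block (0.111) and without naive replicate 1 or 2 or cells-alone replicate 1 or 2 (adjusted *P* values up to 0.114). With EPO it was not called (log2 difference -0.05, adjusted *P* value 0.857). *Ifit1bl1* and *Ifit1bl2* are similar neighbouring genes, and whether their probes tell them apart was not tested.

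Interferon-induced genes are known targets of interferon-stimulated response elements, so their promoters are given from RefSeq (GRCm38.p6) as the 250 bases before the annotated start, 5′ to 3′ on the gene's strand, with matches to GAAANNGAAA, the core of that element, in capitals (TTTCNNTTTC on the other strand, overlapping matches merged). The windows are chr4:156200819-156201068 for *Isg15*, chr19:34640744-34640993 for *Ifit1bl2* and chr19:34601969-34602218 for *Ifit1bl1*, all on the minus strand.
Isg15: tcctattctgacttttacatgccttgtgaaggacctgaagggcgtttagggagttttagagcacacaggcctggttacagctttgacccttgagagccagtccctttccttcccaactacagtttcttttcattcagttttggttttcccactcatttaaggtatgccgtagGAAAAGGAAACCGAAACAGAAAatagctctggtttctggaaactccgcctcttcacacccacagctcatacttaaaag
Ifit1bl2: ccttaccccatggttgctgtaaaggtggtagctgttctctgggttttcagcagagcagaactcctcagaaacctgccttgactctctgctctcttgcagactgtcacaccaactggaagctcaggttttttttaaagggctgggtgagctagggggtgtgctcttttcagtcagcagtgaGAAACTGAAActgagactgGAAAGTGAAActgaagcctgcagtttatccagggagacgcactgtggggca
Ifit1bl1: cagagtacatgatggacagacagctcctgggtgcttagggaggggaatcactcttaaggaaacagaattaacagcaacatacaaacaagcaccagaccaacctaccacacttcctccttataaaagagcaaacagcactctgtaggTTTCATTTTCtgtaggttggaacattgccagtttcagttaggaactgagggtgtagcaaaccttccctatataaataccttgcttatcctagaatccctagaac

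*Isg15* held 3 overlapping matches in a run of 22 bases that begins 78 bases before the start. *Ifit1bl2* held 2 separate matches, beginning 70 and 51 bases before it, and *Ifit1bl1* held 1 on the other strand, at 104 bases. The table gives 2 starts for *Ifit1bl1* and *Ifit1bl2* each; the first is shown, and at the other start *Ifit1bl1* held 1 match and *Ifit1bl2* none. All 3 genes thus held the motif, while *Isg15* alone was called with EPO. Promoters were matched for 39 of the 43 genes, of which 9 (23.1%) held the motif, beside 3.46% of 27025 genes with a promoter in the table. Besides the 3 above these were *Ifna1*, *Irf2*, *Myd88*, *Stat4*, *Tlr11* and *Tlr6*. Among the genes called with EPO, 1 of 8 higher (*Isg15*) and 1 of 12 lower (*Stat4*) held it, and among those not called, 7 of 19 did. The motif TTCNNNGAA, the site of Stat dimers, which reads the same on both strands, was held by 10 of the 39 (25.6%), beside 8.13% of all, namely 2 of 8 higher (*Ifnar2* and *Tlr8*), 2 of 12 lower (*Ifng* and *Irf1*) and 6 of 19 not called. These are matches of letters in a fixed window and not measured binding.

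Other genes of these pathways were taken from a list of coreceptors, signalling proteins, inflammasome genes, interferon-induced genes, Janus kinases and regulators of these kinases, of which 29 were in the table. With EPO, 6 of them rose (20.7%, beside 22.8% of all genes), 15 fell (51.7%, beside 28.3%) and 8 were not called. With totals 9 fell (beside 20.6% of all genes), and on all 4 scales 2 rose (beside 16.8%) and 9 fell (beside 20.4%). Of 9 further interferon-induced genes, 2 rose (22.2%) and 3 fell (33.3%), near the shares of all genes. *Usp18*, which removes ISG15 from proteins, rose by 0.61 (adjusted *P* value 0.0166) and the chemokine gene *Cxcl10* by 0.55 (0.00742), neither on all 4 scales. *Mx1* and *Mx2*, antiviral GTPases, were not called (log2 differences 0.11, adjusted *P* value 0.532 and 0.10, adjusted *P* value 0.699), nor were *Cxcl9* and *Cxcl11*. *Tap1*, *Psmb8* and *Psmb9*, which serve peptide processing for class I molecules, fell by 0.50, 0.24 and 0.31 (adjusted *P* values 1.61e-04, 0.0146 and 0.0463), of which *Tap1* fell on all 4 scales. The rise of *Isg15* was thus not shared by the list as a whole.

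Of the 6 genes for Toll-like receptor coreceptors and proximal signalling, 4 fell with EPO (66.7%, beside 28.3% of all genes) and none rose (beside 22.8%). *Tnfaip3*, a deubiquitinase that restrains NF-κB, fell by 1.52 (adjusted *P* value 2.3e-06), *Nfkbia*, the inhibitor of NF-κB, by 0.70 (0.00592), and *Traf6*, the ligase downstream of MyD88, by 0.51 (4e-04), all on all 4 scales. Among the genes that C-type lectins and NOD proteins signal through, *Malt1* fell by 1.37 (8.39e-07), *Ripk2*, the kinase of NOD2, by 0.55 (0.00151) and *Bcl10* by 0.44 (6.25e-04), also on all 4 scales. Among Janus kinases and their regulators, *Socs2* rose by 1.26 (1.98e-05), whereas *Jak3*, a kinase of lymphocyte cytokine receptors, fell by 0.76 (1.81e-04), *Socs1* by 0.54 (0.00341) and *Socs3* by 0.44 (0.0274). The calls of *Socs1* and *Socs3* were lost with totals (0.0505 and 0.064).

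The step from BALB/c spleen cells alone to CTLA4-Ig changed none of the 43 genes at the adjusted threshold. Differences lay between -0.41 (*Tlr12*) and 0.39 (*Ifng*). At an unadjusted *P* value below 0.05, limma called 1 gene (2.33%, beside 9.54% of all genes), *Nlrp3*, which was 0.20 higher (standard error 0.09, unadjusted *P* value 0.0499, adjusted 0.523) with overlapping groups. *Stat6* was the only gene of the 43 (2.33%) whose groups did not overlap, beside 54 of all 734 genes. *Stat6* read 9.72, 9.81, 9.82 and 9.76 with cells alone and 9.85, 10.00, 9.84 and 9.84 with CTLA4-Ig (log2 difference 0.10, adjusted *P* value 0.849). A difference that misses the threshold with 4 mice a group does not show that the levels were equal.

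The step from naive mice to cells alone is the one in which the scale matters most. On the deposited scale 30 of the 43 genes were lower, while centring each mouse gave 15 higher (34.9%, beside 33% of all genes) and 16 lower (37.2%, beside 26.7%), quantile normalization 16 (37.2%, beside 34.2%) and 16 (37.2%, beside 26.2%), and the counts scaled by totals 23 (53.5%, beside 46.2%) and 12 (27.9%, beside 18.7%). Those lower on all 4 scales were *Clec5a*, *Clec7a*, *Tlr2*, *Ifit1bl2*, *Tlr6*, *Ifna1*, *Tlr4*, *Tlr13*, *Isg15*, *Nlrp3*, *Myd88* and *Irf7*, and those higher were *Irf4*, *Clec9a*, *Tlr1* and *Ifit1bl1*. The receptors had a median difference of -1.32 in this step and the interferon genes of -0.48, on either side of the all-gene median of -0.65. The neutrophil marker sum fell in the same step, at 244776 to 721159 in naive mice and 11276 to 33113 with cells alone, and its part in these differences was not tested. Small differences near the all-gene median took their sign from the scale. These included *Stat5b*, *Stat6* and *Tlr7*, at -0.69, -0.78 and -0.72 as deposited and between -0.05 and 0.04 after centring. *Tlr3* (log2 difference -0.40, adjusted *P* value 0.0393) lost its call without naive replicate 1, 3 or 4 or cells-alone replicate 1, 2 or 3 (adjusted *P* values up to 0.105), *Stat5a* (-0.32, adjusted *P* value 0.0146) without cells-alone replicate 1 (0.0509), and *Tmem173* gained one without EPO replicate 1 or 4 (down to 0.0242).

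**Figure D4:**
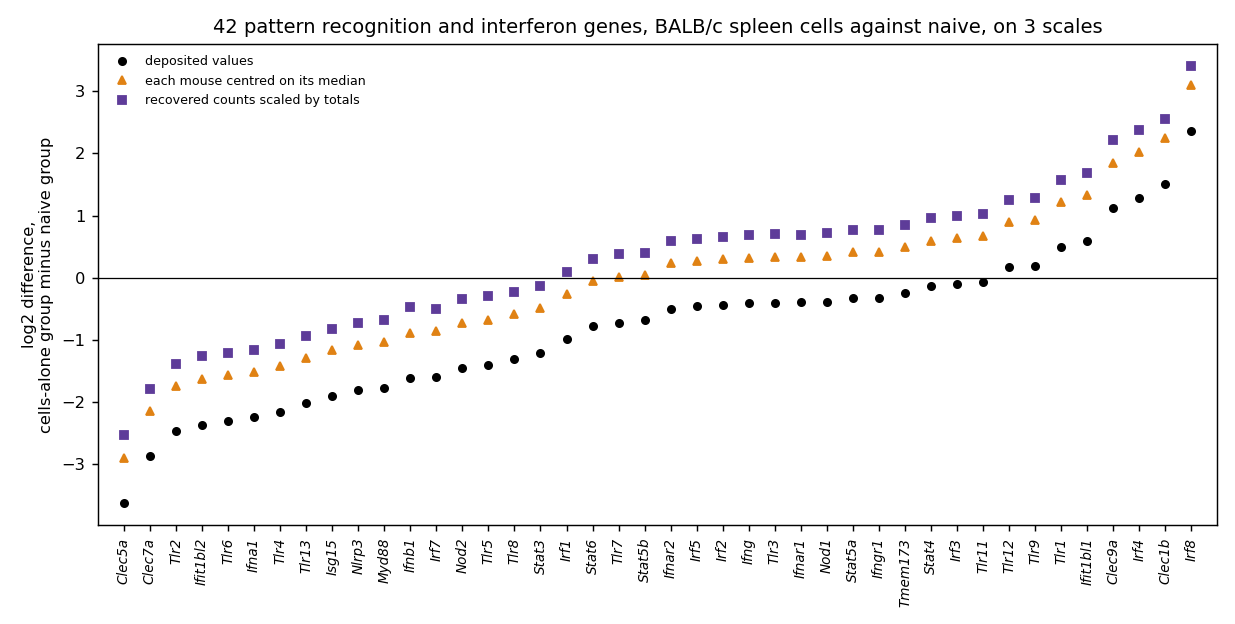
Log2 difference between the cells-alone group and naive mice (4 mice each) for 42 of the 43 genes on 3 scales, ordered by the deposited values; black circles are the deposited values, orange triangles the values centred on each mouse's median and purple squares the counts scaled by totals. The scales move all genes up together, so the 12 genes called lower on all scales stay below 0 and *Clec9a*, *Irf4*, *Tlr1* and *Ifit1bl1* stay above it, whereas genes such as *Tlr3* and *Tmem173* cross 0.

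The steps from naive to cells alone and from CTLA4-Ig to EPO share no mice, so their calls can be set side by side. Of the 43 genes, 17 were called in both (39.5%, beside 37.5% of all genes). In 9 of these (20.9% of the 43, beside 26.4% of all genes) the second step went against the first (among them *Clec5a*, *Ifnar2*, *Irf4*, *Irf7*, *Isg15*, *Tlr4*, *Tlr8* and *Tlr13*), and in 8 (beside 11% of all genes) it went the same way (*Ifnar1*, *Ifngr1*, *Irf1*, *Nlrp3*, *Nod2*, *Stat3*, *Stat5b* and *Tlr5*). After centring the numbers were 13 (30.2%, beside 30.9%) and 6 (14%, beside 7.36%), after quantile normalization 11 (25.6%, beside 29%) and 5 (11.6%, beside 6.68%), and with totals 11 (25.6%, beside 27.8%) and 4 (9.3%, beside 8.72%). *Clec5a*, *Irf4*, *Isg15*, *Tlr4* and *Tlr13* went against the first step on all 4 scales, and *Nlrp3* went the same way on all 4.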

How the data were processed

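RNA of splenic CD11b+ cells was counted without amplification on a NanoString nCounter mouse myeloid innate immunity panel. The authors normalized the raw counts in limma and deposited log2 values for 734 genes, 1 column per mouse. These are log2 of whole counts times a factor per mouse (100% whole within 0.001, taking each mouse's lowest value as a count of 1), and what the factor was computed from is not given in the sources used here. The names of 43 genes were matched to RefSeq (GRCm38.p6), 42 by symbol and 1 by synonym. The values of some genes are not reported here, although they are included in the counts.

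The 4 group means were fitted to the log2 values of 16 mice with limma 3.58.1 (R 4.3.3), without a filter, two-sided, with Benjamini-Hochberg adjustment over 734 genes. The script was tested on simulated data. No mouse repeated another: the chi-square per degree of freedom between mice of a group was at least 5.10 and r across genes at least 0.966. *P* values measure the spread between mice. Between the CTLA4-Ig and EPO groups, the deviations of mice with the same number had r of 0.143 to 0.183 across genes. From these values alone, the numbers were treated as pairs in the blocked fit, and the main fit had no block. Mice with different numbers were not compared in this way, so r does not show that the mice were paired. For cells alone against CTLA4-Ig r was 0.016 to 0.293, and for naive mice against cells alone -0.058 to 0.165.

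Values in every mouse are given for the 6 largest rises and 6 largest falls with EPO and the 4 and 4 for cells alone relative to the all-gene median, among called genes without overlap, and for *Irf8*, *Myd88* and *Tmem173*, with the gene of smallest *P* value for CTLA4-Ig. Genes and lists were chosen with earlier results of these data known. Alternatives were an unadjusted threshold, centring, quantile normalization, limma-voom on counts scaled by totals, removal of the lowest 25% of genes, the 2 groups alone, a replicate block and leaving out each mouse.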

Additional observations from a re-analysis of the deposited data

Results flagged for a closer look

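In 10 of 172 sets of 4 mice (43 genes in 4 groups), 1 mouse lay far from the other 3 by Dixon's criterion, which chance flags in about 1 of 20 sets. Of these, 4 were in naive replicate 1, with 0.89 for *Irf8*, 9.57 for *Myd88*, 11.17 for *Nlrp3* and 7.82 for *Tmem173*, where the other naive mice were at 9.64 to 9.87, 9.30 to 9.33, 10.94 to 10.97 and 7.90 to 7.91. In the cells-alone group, replicate 1 had 7.18 for *Isg15* (others 6.46 to 6.56) and replicate 3 had 6.61 for *Tlr6* (others 6.79 to 6.80). In the CTLA4-Ig group, replicate 1 had 6.03 for *Clec1b* (others 5.43 to 5.47) and 7.99 for *Stat5b* (others 8.22 to 8.25), replicate 2 had 10.00 for *Stat6* (others 9.84 to 9.85), and replicate 3 had 7.90 for *Stat4* (others 8.13 to 8.14). No EPO mouse stood apart in this way. Except for *Irf8*, *Isg15* and *Clec1b*, the distances were under 0.5 on the log2 scale.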

How the results depend on the processing

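The scale affected how many genes were called in each direction, more so against naive mice than with EPO. Against naive mice, mice given BALB/c spleen cells alone had 4 of the 43 genes called higher and 30 lower on the deposited scale, 15 and 16 after centring each mouse on its median, 16 and 16 after quantile normalization, and 23 and 12 with limma-voom on counts scaled by totals, where all 734 genes gave 87 and 429, 242 and 196, 251 and 192, and 339 and 137. In that step, differences that are negative as deposited turned positive, in genes reported by name that were called as deposited or on the scale named, after centring for *Ifnar1* 0.33, *Ifnar2* 0.23, *Ifngr1* 0.41, *Irf2* 0.30, *Irf3* 0.63, *Irf5* 0.27, *Nod1* 0.34, *Stat4* 0.60, *Stat5a* 0.41, *Stat5b* 0.042, *Tlr11* 0.67, *Tlr3* 0.33, *Tlr7* 0.0074 and *Tmem173* 0.49, after quantile normalization for *Ifnar1* 0.32, *Ifnar2* 0.22, *Ifngr1* 0.51, *Irf2* 0.44, *Irf3* 0.57, *Irf5* 0.40, *Nod1* 0.26, *Stat4* 0.49, *Stat5a* 0.35, *Stat6* 0.11, *Tlr11* 0.63, *Tlr3* 0.36 and *Tmem173* 0.40, and with totals for *Ifnar1* 0.68, *Ifnar2* 0.59, *Ifng* 0.69, *Ifngr1* 0.76, *Irf1* 0.098, *Irf2* 0.65, *Irf3* 0.99, *Irf5* 0.63, *Nod1* 0.71, *Stat4* 0.96, *Stat5a* 0.77, *Stat5b* 0.39, *Stat6* 0.30, *Tlr11* 1.03, *Tlr3* 0.71, *Tlr7* 0.37 and *Tmem173* 0.85. With EPO, 10 genes were higher and 12 lower as deposited, 7 and 16 after centring, 10 and 10 after quantile normalization, and 12 and 6 with totals. In the same order, all 734 genes gave 167 and 208, 126 and 276, 155 and 223, and 189 and 151. No gene of the 43 called in this step changed sign on another scale. For CTLA4-Ig, an unadjusted *P* value gave 1 gene in place of 0. Leaving out each mouse in turn gave 36 to 38 genes differing among groups, 3 to 5 higher and 27 to 31 lower for cells alone, and 8 to 12 higher and 9 to 13 lower for EPO. The difference of *Irf8* with EPO, -0.46, passed the threshold without naive replicate 1. Whether mice with the same number were paired was not shown. For EPO against CTLA4-Ig, a fit of these 2 groups with a replicate block called 9 genes higher and 11 lower. The calls it changed were those of *Ifnar1*, *Ifnar2*, *Irf7*, *Stat3*, *Irf8* and *Tlr2*. For cells alone against naive mice the block lost the calls of 4 genes. The lowest counts, 4 to 17 for *Ifnb1* and 7 to 55 for *Ifna1*, *Tlr12* and *Ifit1bl2*, limit what could be detected in them.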
